A study of Mus musculus with 24 samples.

Results

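The 10 genes described here encode the enzymes that make UDP-GlcNAc (uridine diphosphate N-acetylglucosamine) and the enzymes that return free amino sugars to metabolism. They were chosen by name from the 55487 genes of the deposited count table, with earlier results of these libraries known. The recycling genes are *Amdhd2*, *Nagk*, *Gnpda1*, *Gnpda2* and *Renbp*, and the synthesis genes are *Gfpt1*, *Gfpt2*, *Gnpnat1*, *Pgm3* and *Uap1*. The drug and genotype comparisons of the whole table had been seen when the genes were picked, so the values below describe these libraries, and no count over the genes or p-value is independent evidence of a pattern.

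Poly(A) RNA was sequenced from mouse embryonic fibroblasts (MEFs) in 6 groups of 4 libraries. Wild-type (WT) cells and cells without functional *Tfeb* and *Tfe3* (*tfeb tfe3* DKO) each received vehicle (DMSO), torin1 or MK8722. Torin1 is an ATP-competitive inhibitor of the kinase MTOR, and MK8722 is an allosteric activator of AMPK, the kinase that senses low cellular energy. In these cells the study looked for drug-responsive genes that need TFEB and TFE3, transcription factors that switch on lysosomal genes once they are dephosphorylated. Its wider question was whether TFEB activation requires AMPK, which it followed in separate MEFs without AMPK that are not described here. Each genotype is represented by a single cell line received from another laboratory, so genotype and line cannot be told apart. The libraries of a group came from cultures at different passages, and no label says more about how independent they were. The p-values therefore measure only the spread between these cultures.

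UDP-GlcNAc is the donor for N-glycans, for hyaluronan and for O-GlcNAc on nuclear and cytosolic proteins. The hexosamine pathway builds it from fructose 6-phosphate and glutamine. GlcNAc set free in the lysosome from glycoproteins and glycosaminoglycans can be phosphorylated and used again for UDP-GlcNAc, or it can be deacetylated and deaminated back to fructose 6-phosphate. MTORC1 (MTOR complex 1) holds TFEB in the cytosol of fed cells, and TFEB recognises E-box sequences in the promoters of lysosomal genes.

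Among the 8 promoters searched, the E-box CACGTG was found only upstream of *Amdhd2*. That sequence is shown with those of *Nagk* and *Renbp*, whose transcripts also rose with both drugs in WT cells but whose windows held no such match. The windows were the 250 bases before each RefSeq gene start on GRCm38.p6, read on both strands for CACGTG, for its longer form TCACGTGA, which contains it, and for TGATGNAA, a motif that contains neither of them but can share end letters with TCACGTGA. RefSeq windows were used for 8 of the 10 genes, and *Gnpda1* and *Gnpnat1* were not searched. *Amdhd2* held CACGTG at 3 places, starting 67, 50 and 23 bases before the start, and 1 of these lay within a TCACGTGA. The first stretch covers chr17:24163767-24163865 and the second chr17:24163739-24163768, both on the minus strand. The *Nagk* stretch is chr6:83794750-83794981 on the plus strand, and the *Renbp* stretch is chrX:73930851-73931100 on the minus strand. Capitals mark CACGTG.
Amdhd2 upstream: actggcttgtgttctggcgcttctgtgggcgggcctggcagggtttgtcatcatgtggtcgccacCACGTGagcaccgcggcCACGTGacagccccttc
Amdhd2 nearer the start: tcagctgagagtCACGTGatgcgacctggc
Nagk upstream: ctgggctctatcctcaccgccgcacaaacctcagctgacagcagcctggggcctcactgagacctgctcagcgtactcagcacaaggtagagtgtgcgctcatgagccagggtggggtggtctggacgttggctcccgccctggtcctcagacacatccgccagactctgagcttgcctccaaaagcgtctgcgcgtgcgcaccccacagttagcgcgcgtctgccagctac
Renbp upstream: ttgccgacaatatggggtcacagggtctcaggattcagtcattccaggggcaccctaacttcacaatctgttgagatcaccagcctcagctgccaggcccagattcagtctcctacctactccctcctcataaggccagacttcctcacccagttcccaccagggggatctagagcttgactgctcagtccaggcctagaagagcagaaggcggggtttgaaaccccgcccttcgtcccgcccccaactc

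Of 32851 mouse promoter windows of this length, 6.02% held at least 1 CACGTG and 0.0609%, or 20 windows, held 3 or more. TCACGTGA stood in 0.785% of them and TGATGNAA in 3.45%. The windows of *Nagk*, *Gnpda2*, *Renbp*, *Gfpt1*, *Gfpt2*, *Pgm3* and *Uap1* held none of the 3 motifs, which says only that these letters are not in these 250 bases. The CACGTG nearest the *Amdhd2* start falls inside the first exon of the GENCODE annotation, whose gene model begins further upstream. The upstream neighbour on the same strand is *Atp6v0c*, a proton pump subunit gene chosen after its values were seen. The log2 fold change of *Atp6v0c* with torin1 was -0.23 in WT and -0.71 in DKO cells, and with MK8722 it was 0.39 and -0.03.

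The libraries held 24668921 to 33332562 estimated counts, and 15401 genes were tested in one fit over all 24. A call, higher or lower, required both an adjusted p under 0.05 and a 1.2-fold change or more. Expression is given in CPM, counts scaled to the library's total, except where genes are compared with each other, which is done in TPM, transcript abundance corrected for length. *Tfeb* fell from 20.9–25.0 CPM in the WT to 1.95–2.65 CPM in the DKO libraries with DMSO (log2 fold change -3.35 ± 0.10 SE). *Tfe3* mRNA was 119–122 CPM in WT and 121–126 CPM in DKO libraries with DMSO, so its transcript level does not check the labels. All 9 fibroblast markers reached 1 TPM in every WT group and 8 of 9 did in every DKO group, with *Thy1* at 0 in the DKO libraries given DMSO or torin1. Epithelial and endothelial markers summed to at most 1.58 and 0.442 TPM. The 6 macrophage and leukocyte markers summed to 2.35–3.51 TPM with DMSO, 6.50–9.99 with torin1 and 14.98–22.1 with MK8722 in WT cells. In DKO cells they summed to 5.76–9.24, 7.02–12.5 and 11.7–17.3 TPM. Only *Cd68*, a lysosomal membrane protein gene named after its values were seen, reached 1 TPM, and *Adgre1* was at 0 in every library. Their part in the results was not tested.

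The recycling genes rose together in WT cells. With torin1 all 5 rose, by 1.46- to 4.93-fold, and with MK8722 4 of 5 rose, by 2.16- to 4.63-fold. Among all genes tested, 26.6% were called higher with torin1 and 10.3% with MK8722. The median log2 fold change of the 5 genes was 2.01 with torin1 and 1.44 with MK8722, beside 0.05 and -0.01 over all genes. In DKO cells the medians were 0.74 and 0.28, beside 0.02 and 0.00 over all genes. There 4 of the 5 rose with torin1 and 2 rose with MK8722, where 23% and 5.47% of all genes were called higher. Bulk RNA cannot tell fewer expressing cells from less RNA per cell, here or below.

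**Figure D1:**
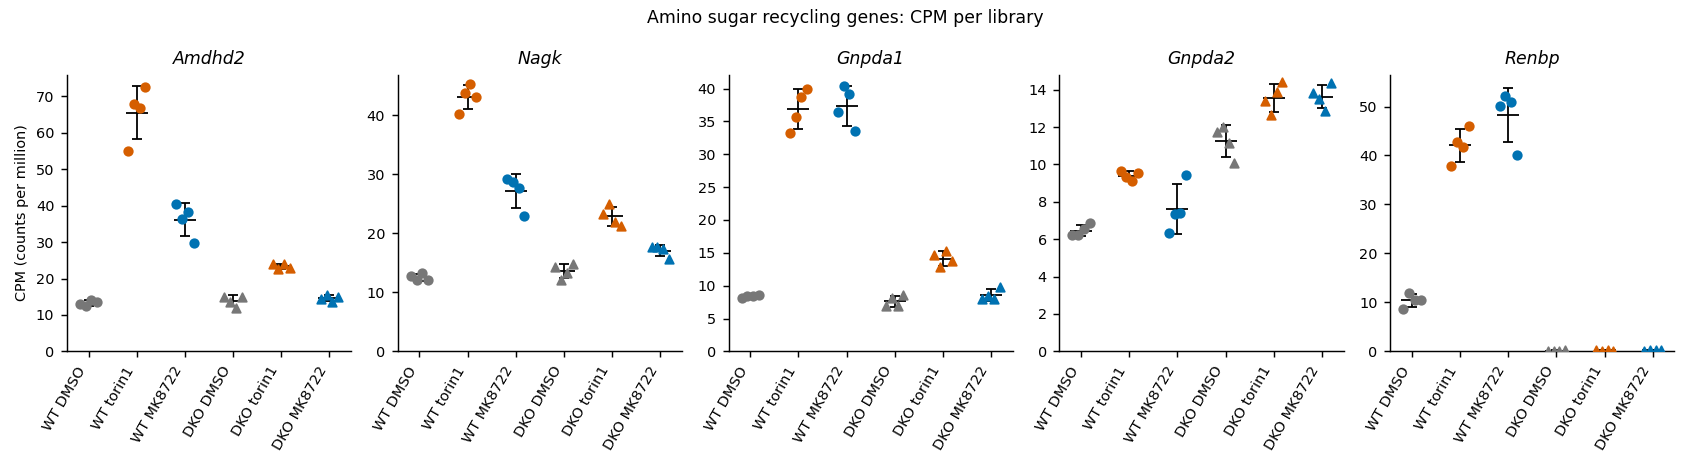
CPM (vertical axes, linear from 0, a scale for each gene) of the 5 recycling genes in each of the 24 libraries. Points are libraries, circles WT and triangles DKO, and black marks give the group mean ± SD (n = 4). In WT cells *Amdhd2*, *Nagk*, *Gnpda1* and *Renbp* stood higher in every drug-treated library than in every DMSO library, and *Renbp* lay near 0 in all DKO libraries.

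*Nagk* encodes the kinase that phosphorylates free GlcNAc, the entry step of recycling, and lies at chr6:83794982-83804018 on the plus strand. In WT cells it was at 12.8, 12.1, 13.3 and 12.03 CPM with DMSO, at 40.3, 43.7, 45.2 and 43.2 CPM with torin1 and at 29.2, 28.7, 27.7 and 23.0048 CPM with MK8722. In DKO cells it was at 14.3, 12.2, 13.3 and 14.9 CPM with DMSO, at 23.3, 25.0, 21.99 and 21.3 CPM with torin1 and at 17.7, 17.6, 17.4 and 15.6 CPM with MK8722. The 3 treatments did not overlap in either genotype, and the DKO torin1 libraries all lay below the WT torin1 libraries. *Nagk* rose 3.43-fold with torin1 in WT cells (log2 fold change 1.78 ± 0.07 SE, edgeR quasi-likelihood adjusted p = 9.01e-15) and 1.67-fold in DKO cells (0.74 ± 0.07). With MK8722 it rose 2.16-fold in WT cells and 1.25-fold in DKO cells (edgeR adjusted p = 0.0037). The DKO response was smaller than the WT response by 1.03 ± 0.10 on the log2 scale with torin1 and by 0.79 ± 0.10 with MK8722, and both differences passed the test.

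*Amdhd2*, at chr17:24155833-24163766 on the minus strand, encodes the deacetylase that turns GlcNAc 6-phosphate into glucosamine 6-phosphate, the substrate shared by *Gnpnat1* and the deaminases. In WT cells it was at 13.0044, 12.5, 14.2 and 13.6 CPM with DMSO, at 55.1, 68.0, 66.7 and 72.5 CPM with torin1 and at 40.3, 36.2, 38.3 and 29.8 CPM with MK8722. The DKO libraries were at 15.01, 13.6, 11.98 and 15.04 CPM with DMSO, at 23.97, 22.7, 23.9 and 22.9 CPM with torin1 and at 14.5, 15.5, 13.5 and 14.9 CPM with MK8722. The DKO libraries with MK8722 overlapped those with DMSO, while the DKO libraries with torin1 stood above both. The rise was 4.93-fold with torin1 in WT cells, the largest of the 9 tested genes in that comparison (log2 fold change 2.30 ± 0.09 SE, edgeR adjusted p = 3.63e-15), and 1.68-fold in DKO cells. With MK8722 it was 2.72-fold in WT cells, and the DKO log2 fold change of 0.07 ± 0.09 did not pass (edgeR adjusted p = 0.684). The responses of the genotypes differed by -1.55 ± 0.13 with torin1 and by -1.38 ± 0.13 with MK8722. The same transcript carried most of the gene's TPM in every group, with group means of 56.7% to 63.5%.

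*Gnpda1* and *Gnpda2* encode glucosamine 6-phosphate deaminases, which release ammonia and return fructose 6-phosphate. *Gnpda1* was at 8.09, 8.46, 8.44 and 8.65 CPM with DMSO, at 33.2, 35.7, 38.8 and 39.97 CPM with torin1 and at 36.4, 40.4, 39.2 and 33.6 CPM with MK8722 in WT cells. In DKO cells it was at 6.92, 8.07, 6.87 and 8.58 CPM with DMSO, at 14.7, 12.8, 15.3 and 13.7 CPM with torin1 and at 8.00, 8.38, 7.91 and 9.83 CPM with MK8722. In WT cells the 2 drugs overlapped and both stood clear of DMSO, whereas in DKO cells only torin1 stood clear. *Gnpda1* rose 4.39-fold with torin1 and 4.45-fold with MK8722 in WT cells, and 1.86-fold with torin1 in DKO cells. Its log2 fold change with MK8722 in DKO cells was 0.17 ± 0.09 SE (edgeR adjusted p = 0.21). The response to MK8722 differed between genotypes by -1.99 ± 0.12 on the log2 scale, the largest such difference among the members, and the response to torin1 by -1.24 ± 0.12.

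Counts of *Gnpda1* can be split with *Gm8615*, a transcribed processed pseudogene that shares 57.8% of its 31-base words with it. The shared words are 14.4% of those of *Gnpda1*. *Gm8615* was at 1.14–1.75 CPM with DMSO, 5.09–6.99 CPM with torin1 and 4.94–6.395 CPM with MK8722 in WT cells, and at 1.97–4.13 CPM over the DKO libraries. The values of both genes are therefore uncertain. With the counts of both added, the log2 fold changes in WT cells were 2.12 with torin1 and 2.13 with MK8722, and no *Gnpda1* call changed.

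*Gnpda2*, the paralog at chr5:69573108-69592340 on the minus strand, moved less and was higher in DKO cells. In WT cells it was at 6.21, 6.23, 6.57 and 6.85 CPM with DMSO, at 9.63, 9.34, 9.09 and 9.56 CPM with torin1 and at 6.31, 7.35, 7.39 and 9.46 CPM with MK8722. The DKO libraries were at 11.7, 11.99, 11.2 and 10.1 CPM with DMSO, at 13.4, 12.6, 13.9 and 14.4 CPM with torin1 and at 13.8, 13.5, 12.9 and 14.3 CPM with MK8722. Every DKO library stood above every WT library, by 1.74-fold with DMSO in the fit. *Gnpda2* rose 1.46-fold with torin1 in WT cells and 1.21-fold with each drug in DKO cells, where both calls were lost without DKO DMSO replicate 4 (log2 fold change 0.22 and 0.23) and without the replicate 4 of the drug itself (0.25 and 0.25). With MK8722 in WT cells its log2 fold change of 0.24 ± 0.09 had an edgeR adjusted p of 0.0444 but lay under the fold threshold. The genotypes' responses differed by -0.27 ± 0.12 with torin1 and by 0.04 ± 0.12 with MK8722, and neither difference passed (edgeR adjusted p = 0.148 and 0.93). *Gnpda2* shares 1022 exon bases with *Guf1* on the other strand, and the strand setting of the counting is not given in the sources used here, so its counts may hold reads of *Guf1*.

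*Renbp*, at chrX:73922121-73930850 on the minus strand, encodes renin binding protein, an epimerase that interconverts GlcNAc and N-acetylmannosamine. In WT cells it was at 8.73, 11.9, 10.5 and 10.6 CPM with DMSO, at 37.8, 42.8, 41.8 and 45.9 CPM with torin1 and at 50.1, 52.1, 50.9 and 40.1 CPM with MK8722. DKO libraries held 2 to 7 counts each, or 0.0685–0.261 CPM. The gene was thus close to undetected in the DKO line with every treatment, and the groups of that line overlapped. In WT cells *Renbp* rose 4.03-fold with torin1 and 4.63-fold with MK8722. The DKO level was 69.9-fold lower with DMSO (log2 fold change -6.13 ± 0.19 SE), 215-fold lower with torin1 and 256-fold lower with MK8722. The gene had enough counts to be tested only through WT libraries, so these calls are not independent evidence. Log2 fold changes in DKO cells, 0.39 ± 0.39 with torin1 and 0.34 ± 0.40 with MK8722, rest on 15, 21 and 20 counts per group for DMSO, torin1 and MK8722. The response differences of -1.62 ± 0.44 and -1.87 ± 0.44 passed by edgeR (adjusted p = 0.018 and 0.00993) but not by limma voom (adjusted p = 0.0821 and 0.0832). Without DKO DMSO replicate 4 they were -1.44 and -1.69 (edgeR adjusted p = 0.0992 and 0.0795), and without DKO DMSO replicate 2 the torin1 difference was -1.55 (edgeR adjusted p = 0.0549).

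The synthesis genes did not rise with torin1. In WT cells 2 of the 4 tested fell and none rose, and in DKO cells 3 of the 4 fell. Over all genes, 20.5% and 20.2% were called lower. Their median log2 fold change was -0.22 in WT and -0.42 in DKO cells. With MK8722 none fell, 1 of 4 rose in WT cells and 3 of 4 rose in DKO cells. Among all genes, 10.3% were called higher and 5.87% lower with that drug in WT cells, and 5.47% higher and 3.21% lower in DKO cells. The medians with MK8722 were 0.20 and 0.29.

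**Figure D2:**
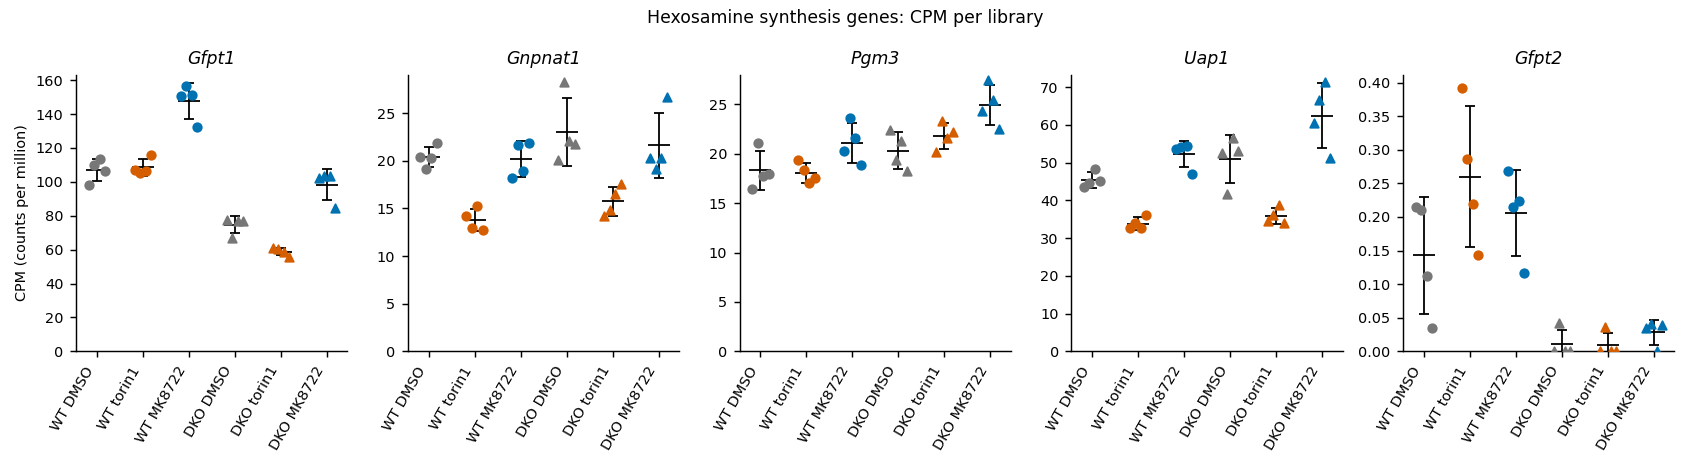
CPM (vertical axes, linear from 0, a scale for each gene) of the 5 synthesis genes in each of the 24 libraries, with circles for WT and triangles for DKO libraries and black marks for the group mean ± SD (n = 4). *Gfpt1* stood lower in each DKO group than in the WT group with the same treatment, *Gnpnat1* and *Uap1* were lowest with torin1, and *Gfpt2* stayed below 0.4 CPM.

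*Gfpt1* encodes glutamine-fructose-6-phosphate transaminase, the rate-limiting first step of the hexosamine pathway, and lies at chr6:87042846-87092197 on the plus strand. In WT cells it was at 98.4, 110.0, 113.6 and 106.3 CPM with DMSO, at 107.2, 105.3, 106.3 and 116.1 CPM with torin1 and at 150.8, 156.4, 151.2 and 132.5 CPM with MK8722. In DKO cells it was at 77.5, 67.1, 77.1 and 77.2 CPM with DMSO, at 60.9, 60.3, 58.7 and 55.8 CPM with torin1 and at 102.1, 103.2, 103.5 and 84.8 CPM with MK8722. Torin1 and DMSO overlapped in WT but not in DKO cells, and MK8722 stood above both in each genotype. *Gfpt1* rose 1.38-fold with MK8722 in WT cells (log2 fold change 0.46 ± 0.06 SE) and 1.32-fold in DKO cells (0.40 ± 0.07), and these responses did not differ by the test (-0.07 ± 0.09, edgeR adjusted p = 0.808). With torin1 its log2 fold change was 0.02 ± 0.06 in WT cells and -0.34 ± 0.07 in DKO cells, a difference of -0.36 ± 0.09 that passed (edgeR adjusted p = 0.00857). The DKO level was 1.43-fold lower than WT with DMSO, 1.85-fold lower with torin1 and 1.501-fold lower with MK8722. One transcript of 6238 bases carried 59.2% to 67.3% of the gene's TPM as group means.

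*Gfpt2*, the paralog of the same first step at chr11:49794178-49838613 on the plus strand, had too few counts to be tested. It had 1 to 12 counts in the WT libraries and 0 or 1 count in the DKO libraries. Summed over the 4 libraries of a group, that was 18, 32 and 23 counts in WT cells with DMSO, torin1 and MK8722, and 1, 1 and 3 counts in DKO cells. A response to either drug was not detectable at this depth.

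*Gnpnat1*, at chr14:45376334-45404913 on the minus strand, encodes the acetyltransferase of the second step. It was at 20.4, 19.2, 20.2 and 21.8 CPM with DMSO, at 14.2, 12.9, 15.2 and 12.7 CPM with torin1 and at 18.2, 21.6, 18.9 and 21.9 CPM with MK8722 in WT cells. The DKO libraries were at 20.05, 28.3, 22.04 and 21.7 CPM, at 14.2, 14.8, 16.5 and 17.5 CPM and at 20.3, 19.2, 20.3 and 26.6 CPM with the same treatments. Every torin1 library lay below every DMSO library of its genotype, and MK8722 overlapped DMSO in both genotypes. *Gnpnat1* fell with torin1 by 0.56 ± 0.11 SE on the log2 scale in WT cells and by 0.55 ± 0.11 in DKO cells (edgeR adjusted p = 8.60e-05 and 1.35e-04). The log2 fold changes with MK8722 were -0.02 ± 0.11 and -0.09 ± 0.11. Its exons share 3878 bases with *Styx* on the other strand, so its counts are uncertain in the same way as those of *Gnpda2*. In addition, 8.78% of its 31-base words occur in other genes, with which its counts can be split.

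*Pgm3* encodes the mutase that moves the phosphate of GlcNAc 6-phosphate, and lies at chr9:86554377-86571842 on the minus strand. Its levels were 16.5–21.1 CPM with DMSO, 17.1–19.4 CPM with torin1 and 18.9–23.6 CPM with MK8722 in WT cells, and 18.2–22.4, 20.2–23.3 and 22.5–27.5 CPM in DKO cells. WT libraries with the 3 treatments overlapped. The log2 fold changes with torin1 were -0.02 ± 0.08 in WT and 0.10 ± 0.08 in DKO cells. With MK8722 they were 0.20 ± 0.08, which did not pass, and 0.29 ± 0.08, which did (edgeR adjusted p = 0.0646 and 0.013). The DKO call was lost without DKO DMSO replicate 4 (adjusted p = 0.0566) or DKO MK8722 replicate 2 (adjusted p = 0.0579), and the WT value passed without WT DMSO replicate 2 (adjusted p = 0.0137), all by edgeR. *Pgm3* shares 1270 exon bases with *Dop1a* on the other strand.

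*Uap1*, at chr1:170141938-170174957 on the minus strand, encodes the pyrophosphorylase that joins GlcNAc 1-phosphate to UTP in the last step. It was at 43.4, 44.5, 48.4 and 45.2 CPM with DMSO, at 32.5, 34.0, 32.6 and 36.1 CPM with torin1 and at 53.5, 54.1, 54.5 and 47.0 CPM with MK8722 in WT cells. The DKO libraries were at 52.5, 41.7, 56.4 and 53.0 CPM, at 34.6, 36.2, 38.7 and 33.9 CPM and at 60.4, 66.5, 71.4 and 51.3 CPM with the same treatments. The torin1 libraries lay below the DMSO libraries in both genotypes. *Uap1* fell with torin1 by 0.42 ± 0.09 SE on the log2 scale in WT cells and by 0.51 ± 0.09 in DKO cells. With MK8722 the log2 fold change was 0.20 ± 0.09 in WT cells (edgeR adjusted p = 0.0791) and 0.29 ± 0.09 in DKO cells (edgeR adjusted p = 0.0183). The DKO call was lost without DKO DMSO replicate 2, DKO MK8722 replicate 2 or DKO MK8722 replicate 3 (edgeR adjusted p = 0.0822, 0.0633 and 0.0918). The last of these libraries had the lowest RNA integrity number, 7.9, and its part was not tested.

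**Figure D3:**
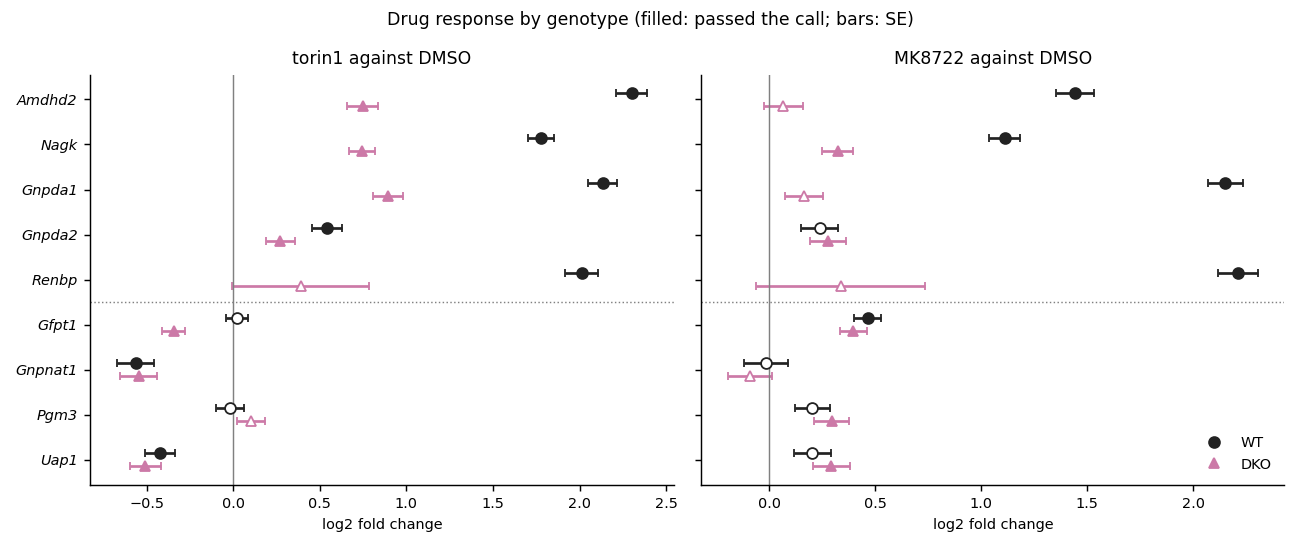
Log2 fold change (horizontal axes) of each tested gene with torin1 (left) and MK8722 (right) against DMSO, in WT (black circles) and DKO cells (pink triangles). Bars are ± 1 SE of the fit, filled symbols passed the call, and the dotted line parts recycling genes (above) from synthesis genes (below). WT values of *Amdhd2*, *Nagk*, *Gnpda1* and *Renbp* lie to the right of their DKO values with both drugs, whereas the values of *Gnpnat1*, *Pgm3* and *Uap1* lie close together.

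The DKO responses of *Amdhd2*, *Nagk* and *Gnpda1* were smaller than the WT responses with each drug. Those of *Renbp* also passed as smaller with each drug by edgeR, but not by limma voom. *Renbp* had enough counts to be tested only through its WT libraries. With 2 to 7 counts in each DKO library, its DKO response was poorly determined. Of the synthesis genes only *Gfpt1* differed, and only with torin1. No member had a larger response in DKO cells that passed the test. Over all genes, the response was called lower in DKO cells for 6.33% with torin1 and for 4.08% with MK8722. It was called higher for 721 of the 15401 genes with torin1 and for 218 with MK8722. The 2 comparisons of responses share their DMSO libraries. The median difference in response over the 5 recycling genes, *Renbp* included, was -1.24 with torin1 and -1.38 with MK8722 on the log2 scale. Over all genes it was -0.01 and 0.01. Over the 4 synthesis genes the medians were -0.03 and 0.01.

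With DMSO the genotypes differed in 3 of the 9 tested genes. *Gnpda2* was higher in DKO cells and *Renbp* and *Gfpt1* were lower, where 23.5% and 24.6% of all genes were called higher and lower. The log2 differences of the others were 0.06 ± 0.09 for *Amdhd2*, 0.12 ± 0.08 for *Nagk*, -0.15 ± 0.09 for *Gnpda1*, 0.17 ± 0.11 for *Gnpnat1*, 0.15 ± 0.08 for *Pgm3* and 0.17 ± 0.09 for *Uap1*, none past the test. With torin1, *Amdhd2*, *Nagk*, *Gnpda1*, *Renbp* and *Gfpt1* were lower in DKO cells and *Gnpda2* and *Pgm3* were higher, beside 27.8% and 24% of all genes. With MK8722 the same 5 were lower and *Gnpda2* was higher, beside 25.4% and 23.3%. *Renbp* could be tested only through its WT libraries, so its calls as lower in DKO cells are not independent evidence. *Amdhd2* was 2.81-fold lower with torin1 and 2.48-fold lower with MK8722, *Nagk* 1.88- and 1.59-fold lower, and *Gnpda1* 2.61- and 4.39-fold lower. The *Pgm3* call with torin1 (log2 difference 0.27 ± 0.08) fell under the fold threshold without WT torin1 replicate 3 or DKO torin1 replicate 2 (0.26 and 0.25). It also did so with a passage block that took a passage number as the same in both lines (0.22). With library size alone the *Pgm3* difference was 0.14 (edgeR adjusted p = 0.124). With MK8722 the log2 differences of *Pgm3* and *Uap1* were 0.24 and 0.26, just under the fold threshold, and those of *Gnpnat1* were 0.19 ± 0.11 with torin1 and 0.10 ± 0.11 with MK8722. *Uap1* with torin1 had a log2 difference of 0.08 ± 0.09.

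The 2 drugs were also set against each other within each genotype, a comparison added after the values were seen. In WT cells *Amdhd2*, *Nagk* and *Gnpda2* were higher with torin1 than with MK8722, by 1.81-, 1.59- and 1.23-fold, while *Gnpda1* and *Renbp* did not differ by the test (log2 difference -0.02 ± 0.08 and -0.20 ± 0.09). *Gfpt1*, *Gnpnat1* and *Uap1* were lower with torin1 than with MK8722, by 0.44 ± 0.06, 0.55 ± 0.11 and 0.63 ± 0.09 on the log2 scale. In DKO cells *Amdhd2*, *Nagk* and *Gnpda1* were higher with torin1, by 1.60-, 1.34- and 1.66-fold, and *Gfpt1*, *Gnpnat1* and *Uap1* were lower. The shares of all genes were 24.9% higher and 20% lower in WT cells, and 21.1% higher and 19.3% lower in DKO cells. The WT call of *Gnpda2* was lost without WT MK8722 replicate 1 (log2 difference 0.22), and *Renbp* became lower with torin1 without WT MK8722 replicate 4 (-0.28, edgeR adjusted p = 0.00531). *Pgm3* was at -0.22 ± 0.08 in WT and -0.19 ± 0.08 in DKO cells, both under the fold threshold. In DKO cells *Gnpda2* and *Renbp* were at -0.01 ± 0.08 and 0.05 ± 0.37.

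**Figure D4:**
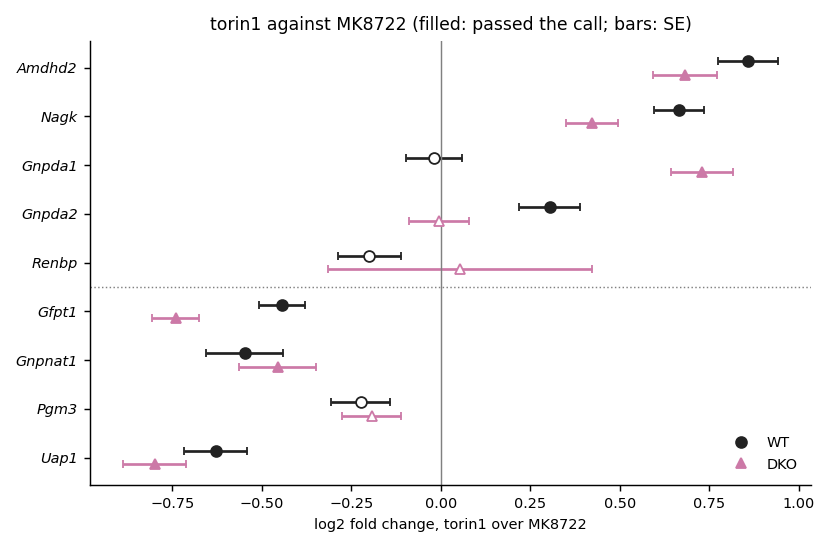
Log2 fold change of torin1 over MK8722 (horizontal axis) for each tested gene in WT (black circles) and DKO cells (pink triangles), with bars of ± 1 SE, filled symbols for calls and a dotted line between recycling (above) and synthesis genes (below). *Amdhd2* and *Nagk* lie to the right of 0 and *Gfpt1*, *Gnpnat1* and *Uap1* to the left in both genotypes.

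The passages at which the cultures were taken gave a further check, because each passage of a genotype held 1 library of every treatment. In WT cells the log2 ratio of torin1 to DMSO within a passage was 2.14–2.35 for *Amdhd2*, 1.69–1.86 for *Nagk*, 1.96–2.25 for *Gnpda1* and 1.66–2.25 for *Renbp*, higher in 4 of 4 passages for each. With MK8722 it was 1.19–1.53, 0.84–1.24, 2.04–2.25 and 2.12–2.26 for the same genes. In DKO cells the torin1 ratio was 0.59–0.99 for *Amdhd2*, 0.65–0.80 for *Nagk* and 0.76–1.15 for *Gnpda1*, again in 4 of 4 passages. *Gfpt1* in DKO cells was lower with torin1 in 4 of 4 passages (-0.39 to -0.27) and higher with MK8722 in 4 of 4 (0.34–0.42), while in WT cells torin1 raised it in 2 passages and lowered it in 2 (-0.04 to 0.11). *Uap1* and *Gnpnat1* were lower with torin1 in 4 of 4 passages of both genotypes.

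Per transcript length, synthesis genes led before treatment. In WT cells with DMSO the mean TPM was 34.7 ± 2.39 (SD, n = 4) for *Gnpnat1*, 34.7 ± 1.82 for *Gfpt1* and 32.6 ± 1.79 for *Uap1*, whose libraries overlapped. Next came *Nagk* at 18.2 ± 1.31, *Amdhd2* at 15.1 ± 1.34, *Renbp* at 13.7 ± 1.61, *Pgm3* at 13.3 ± 2.17, *Gnpda1* at 9.61 ± 2.30 and *Gnpda2* at 7.35 ± 0.345 TPM, and each of these overlapped its neighbour in that order. *Gfpt2* was at 0.0759 ± 0.0460 TPM. With torin1 the order in WT cells was *Amdhd2* at 80.2 ± 7.96, *Nagk* at 64.2 ± 2.90, *Renbp* at 64.2 ± 3.74, *Gnpda1* at 47.8 ± 7.67 and then *Gfpt1* at 39.4 ± 2.46, *Uap1* at 25.9 ± 1.47, *Gnpnat1* at 24.1 ± 2.59, *Pgm3* at 14.1 ± 0.734 and *Gnpda2* at 11.2 ± 0.463 TPM. *Nagk* overlapped *Renbp* there, *Gnpda1* overlapped *Gfpt1* and *Uap1* overlapped *Gnpnat1*, while the other neighbours were apart. In DKO cells with torin1, *Nagk* at 32.2 ± 2.004 TPM was the highest recycling gene, and it stood above *Uap1* at 26.1 ± 1.57, *Gnpnat1* at 24.8 ± 2.23 and *Gfpt1* at 21.03 ± 1.17 TPM.

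The summed TPM of the 5 recycling genes divided by that of the 5 synthesis genes put these levels into one number for each library. The ratio was 0.555 ± 0.0232 (SD, n = 4) with DMSO, 2.58 ± 0.168 with torin1 and 1.47 ± 0.0488 with MK8722 in WT cells, with no overlap between treatments. In DKO cells it was 0.499 ± 0.0278, 1.06 ± 0.0756 and 0.496 ± 0.0299, so that MK8722 lay on DMSO and torin1 stood above both. With *Renbp* left out the WT ratios were 0.436, 1.96 and 0.990 and the DKO ratios 0.497, 1.06 and 0.493. Within the deaminase pair, the TPM of *Gnpda1* over that of *Gnpda2* was 1.31 ± 0.315 with DMSO, 4.28 ± 0.808 with torin1 and 5.29 ± 0.741 with MK8722 in WT cells, and 0.744 ± 0.141, 1.17 ± 0.0515 and 0.623 ± 0.211 in DKO cells.

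The mean of the log2 CPM values of each set was put at 0 for the WT DMSO mean. Compared with DMSO, torin1 went with a higher recycling and a lower synthesis mean in both genotypes. With MK8722 both means were higher in both genotypes. In WT cells recycling stood at 1.75 ± 0.09 (SD, n = 4) with torin1 and 1.42 ± 0.08 with MK8722, or at 1.68 ± 0.08 and 1.22 ± 0.06 with *Renbp* left out, and synthesis at -0.25 ± 0.02 and 0.21 ± 0.08. In DKO cells recycling stood at -0.96 ± 0.10 with DMSO, -0.37 ± 0.09 with torin1 and -0.74 ± 0.08 with MK8722, and with *Renbp* left out at 0.20 ± 0.07, 0.87 ± 0.04 and 0.41 ± 0.05. Synthesis in DKO cells stood at -0.01 ± 0.05, -0.33 ± 0.04 and 0.21 ± 0.06 with DMSO, torin1 and MK8722. With torin1 every DKO library (-0.39 to -0.29) lay below every WT library (-0.27 to -0.23) in the synthesis mean, in which *Gfpt1* was lower in DKO cells and the log2 differences of the other 3 genes were above 0. These means describe genes chosen with results known and were not tested.

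**Figure D5:**
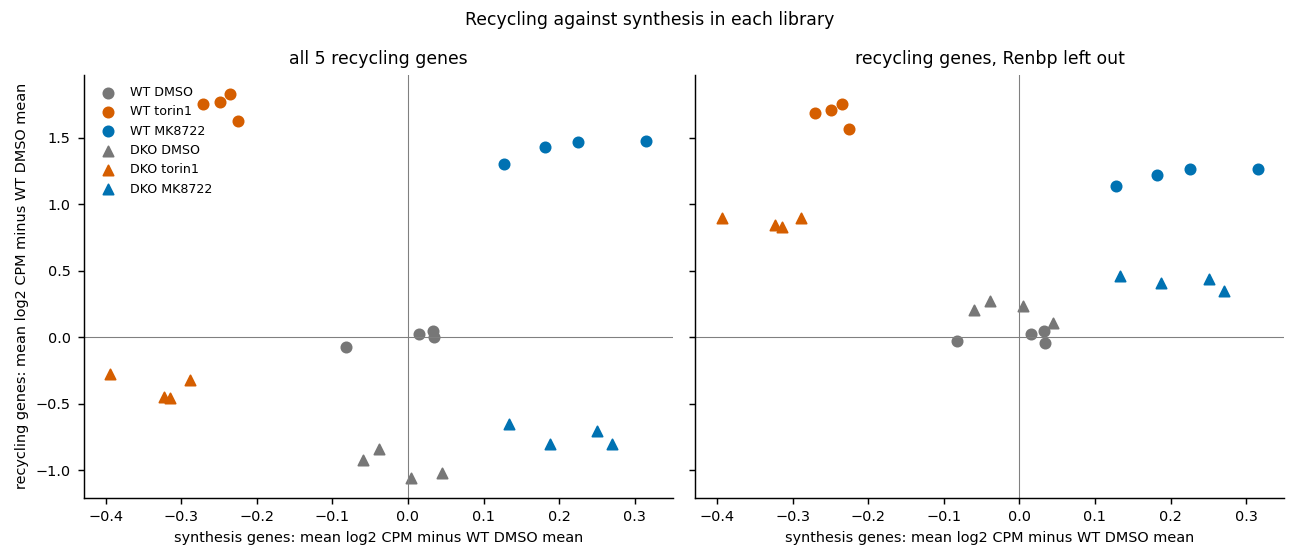
Each point is a library, with the mean log2 CPM of the 4 tested synthesis genes (horizontal axes) and of the recycling genes (vertical axes), both minus the WT DMSO mean. The left panel uses all 5 recycling genes and the right panel leaves out *Renbp*, with circles for WT and triangles for DKO libraries. Torin1 libraries lie to the left of DMSO and MK8722 libraries to the right in both genotypes, and the WT drug-treated libraries lie highest.

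Genes around the pathway were counted in 4 lists. The shares of all genes to read them against were 26.6% higher and 20.5% lower with torin1 in WT cells, 10.3% and 5.87% with MK8722 in WT cells, 23% and 20.2% with torin1 in DKO cells, and 5.47% and 3.21% with MK8722 in DKO cells. A list of 12 genes for the breakdown of glycans and the export of their sugars was not wholly lysosomal. In WT cells 11 of these genes rose with torin1 and 9 with MK8722, and none fell. In DKO cells 5 rose and 1 fell with torin1, and 7 rose with MK8722. Responses were smaller in DKO cells for 7 of the 12 with each drug and larger for 1 with torin1. Of all genes, 6.33% and 4.08% had a smaller response with torin1 and MK8722. A larger response was called for 721 and 218 of the 15401 genes. *Neu1*, a lysosomal sialidase gene, rose 1.47-fold with torin1 and 3.91-fold with MK8722 in WT cells, and in DKO cells it fell by 0.84 ± 0.07 SE on the log2 scale with torin1 and rose 1.40-fold with MK8722. *Hexa*, which encodes the alpha subunit of beta-hexosaminidase, rose 1.84- and 2.32-fold in WT cells, and in DKO cells its log2 fold change was -0.02 ± 0.07 with torin1 and it rose 1.22-fold with MK8722.

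Of 6 sialic acid genes 5 were tested, and 2 fell with torin1 in each genotype while none passed with MK8722. *Gne*, whose product turns UDP-GlcNAc into N-acetylmannosamine and phosphorylates it, fell by 0.32 ± 0.06 SE on the log2 scale in WT and by 0.83 ± 0.06 in DKO cells with torin1. *Slc35a1*, the CMP-sialic acid transporter, was at -0.04 ± 0.05 and -0.22 ± 0.05, neither a call. A list of 16 genes of UDP-GlcNAc use and related steps also held *Oga*, which removes O-GlcNAc, *Galk2*, a GalNAc kinase gene, and *Uap1l1*, a paralog of *Uap1*, none of which uses UDP-GlcNAc as a donor. Of the 16, 15 were tested, and 4 rose and 3 fell with torin1 in WT cells, 5 rose and 1 fell with MK8722 in WT cells, 2 rose and 5 fell with torin1 in DKO cells and 3 rose with MK8722 in DKO cells. With torin1 in WT cells these counts lay near the shares of all genes, and the genes that rose were *Oga*, *Has2*, *Galk2* and *Uap1l1*. *Uap1l1* was at 48.0–59.4 CPM with DMSO, 137–190 CPM with torin1 and 150–181 CPM with MK8722 in WT cells, but at 108–118, 91.3–108 and 106–119 CPM in DKO cells. It rose 3.15-fold with torin1 and 3.14-fold with MK8722 in WT cells, and the DKO response minus the WT response was -1.85 ± 0.12 and -1.62 ± 0.12. *Has1*, a hyaluronan synthase gene, stayed at or below 0.973 CPM in every library and at 0 in the 4 DKO libraries with MK8722. It was called higher with MK8722 in WT cells (log2 fold change 1.18 ± 0.40, edgeR adjusted p = 0.0306) and lower in DKO than in WT cells with all 3 treatments. *Has1* had enough counts to be tested only through WT libraries, while DKO libraries held at most 0.0401 CPM. These calls are therefore not independent evidence. With torin1 in WT cells its log2 fold change was 0.40 ± 0.43, and the DKO response to torin1 minus the WT response was -1.21 ± 1.58.

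Of 8 genes for substrate supply, 5 fell with torin1 in WT cells and none rose, and in DKO cells 5 fell and 1 rose. With MK8722 2 rose in WT cells, and 2 rose and 1 fell in DKO cells. *Slc38a2*, a transporter of glutamine and other neutral amino acids, fell with torin1 by 1.09 ± 0.07 SE on the log2 scale in WT and by 0.90 ± 0.07 in DKO cells. *Glul*, glutamine synthetase, was at 0.25 ± 0.07 with torin1 in WT cells, under the fold threshold, and rose 1.51-fold in DKO cells.

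For each member the gene with the most similar pattern was taken by Pearson's r of log2 CPM over the 24 libraries, which share their groups and depth, and r is given as a description. The nearest gene was *Washc2* for *Amdhd2* (r = 0.984), *Osbpl1a* for *Nagk* (0.968), *Clcn7* for *Gnpda1* (0.982), *Ccdc50* for *Gnpda2* (0.963) and *Abca8b* for *Renbp* (0.995). It was *Snx27* for *Gfpt1* (0.966), *Cebpg* for *Gnpnat1* (0.950), *Aff1* for *Pgm3* (0.915) and *Ralb* for *Uap1* (0.943). Among the members themselves r was highest between *Amdhd2* and *Nagk* (0.972) and between *Amdhd2* and *Gnpda1* (0.945), and lowest between *Gnpda2* and *Renbp* (-0.787).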

How the data were processed

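Poly(A) RNA was sequenced as 52-base read pairs. Per the paper's methods and the submitters' processing notes, the authors ran the nf-core/rnaseq pipeline with STAR and Salmon on GRCm38, with molecular identifiers taken into account. They deposited estimated counts per gene in one table and, in a file per library, estimated counts and TPM per transcript. The study also states a removal of batch effects that it does not define. The labels give 1 batch, and none was removed here. The deposited gene counts equalled the sums of the transcript counts.

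Groups came from the labels. Counts were rounded, genes filtered with filterByExpr (minimum count of 10), normalised by TMM and fitted over all 24 libraries with edgeR 4.0.16 (quasi-likelihood, R 4.3.3), with 18 residual degrees of freedom and a biological coefficient of variation of 10.7%. Adjusted p is Benjamini-Hochberg over the 15401 genes tested, and a call needed an adjusted p under 0.05 with a 1.2-fold change or more. The pipeline was tested on simulated counts. CPM uses TMM-scaled library sizes, and log2 CPM a prior count of 2. TPM per gene is the sum of the deposited transcript TPM. RNA integrity numbers ran from 9.7 to 9.9, except for DKO MK8722 replicate 3 at 7.9. No 2 libraries of a group agreed within sampling noise (chi-square per degree of freedom 3.98 to 40.9 over 36 pairs). Alternatives used DESeq2 1.42.0, limma 3.58.1, other scalings and filters, blocks and left-out libraries.

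The members and lists were chosen with earlier results of these data known. Genes named are the members, *Tfeb*, *Tfe3*, *Gm8615*, the 2 genes of each neighbouring list with the largest torin1 response difference and the most similar gene for each member. *Atp6v0c*, *Thy1*, *Cd68*, *Adgre1*, *Oga*, *Has2* and *Galk2* were added after their values were seen.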

Additional observations from a re-analysis of the deposited data

Results flagged for a closer look

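In groups of 4 libraries, 5 of 54 combinations of gene and group held a library far from the other 3, by Dixon's test of the gap against the group's range, where chance flags about 1 in 20. The lowest WT MK8722 library was replicate 4, at passage 7, for *Renbp* (40.13 CPM) and *Uap1* (46.98 CPM). At passage 8 of the DKO line, *Gfpt1* was lowest with DMSO (67.1 CPM) and with MK8722 (84.83 CPM), and *Gnpnat1* was highest with MK8722 (26.63 CPM).

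The response to torin1 was smaller in DKO than in WT cells by the test of the difference itself (edgeR, log2 scale) for *Amdhd2* (-1.55), *Nagk* (-1.03), *Gnpda1* (-1.24), *Renbp* (-1.62) and *Gfpt1* (-0.36). The response to MK8722 was smaller for *Amdhd2* (-1.38), *Nagk* (-0.79), *Gnpda1* (-1.99) and *Renbp* (-1.87). The *Renbp* differences rest on 2 to 7 counts per DKO library.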

How the results depend on the processing

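Of the 61 called values of single members, none changed sign under any setting run. 39 of their 2372 repeats fell below the call. Many of these repeats left out a library outside the comparison, or dropped the fold threshold, and could hardly lose a call. The share lost is therefore no measure of robustness. Values that changed sign were all uncalled. With library size alone these were *Pgm3* with torin1 in WT (0.073), the genotype difference of *Amdhd2* with DMSO (-0.0065) and of *Uap1* with torin1 (-0.043), the genotype difference in the torin1 response of *Gnpnat1* (-0.037), and torin1 against MK8722 for *Gnpda1* in WT (0.059) and *Gnpda2* in DKO cells (0.021). With at least 10 counts in every library they were *Pgm3* with torin1 in WT (0.0085) and the same 2 comparisons of the drugs (0.0085 and 0.0101). A fit of only the groups compared gave 0.0047 for *Gnpda2*. With an offset for transcript length the *Gnpda1* genotype difference with DMSO was 0.0018, the genotype difference in the torin1 response of *Gnpnat1* -0.067 and *Renbp* in DKO cells, torin1 against MK8722, -0.20. Without the low-count filter *Gfpt1* with torin1 in WT was -0.0091. With *Gm8615* added, the *Gnpda1* genotype difference with DMSO was 0.025. Without the WT libraries of passage 11 the genotype difference in the MK8722 response of *Gnpnat1* was 0.0057, *Gnpda1* in WT 0.041 and *Gnpda2* in DKO cells 0.0025, the last 2 for torin1 against MK8722.

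With 1 library left out, ranges that crossed 0 were -0.021 to 0.047 for *Gfpt1* and -0.083 to 0.055 for *Pgm3* with torin1 in WT cells. For *Gnpnat1* they were -0.071 to 0.018 and -0.21 to 0.021 with MK8722 in WT and DKO cells, -0.016 to 0.15 between genotypes with MK8722, and -0.032 to 0.13 and -0.19 to 0.036 for the genotype differences in the torin1 and MK8722 responses. The genotype difference in the *Gnpda2* MK8722 response ran from -0.021 to 0.18. For torin1 against MK8722 they were -0.074 to 0.0083 for *Gnpda1* in WT, and -0.027 to 0.035 for *Gnpda2* and -0.12 to 0.18 for *Renbp* in DKO cells. The cause was not tested.

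The number of members called with MK8722 in DKO cells was 5, but 0 when tested against a 1.2-fold change and 3 with the transcript length offset, and 3 to 5 with 1 library left out. It fell to 3 without DKO DMSO replicate 4 or DKO MK8722 replicate 2. The number with a differing torin1 response was 5, but 3 when tested against that fold. All other counts of members stayed within 1.5 times of their main value.

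Same-numbered libraries were not matched throughout. Those of the DKO torin1 and MK8722 groups came from the same passages. So did DKO replicate 3 with every treatment, and WT replicate 2 with DMSO and MK8722. Deviations of same-numbered libraries correlated from -0.41 to 0.66 within a genotype and from -0.11 to 0.16 across genotypes. A replicate block left 7 members called with torin1 and 5 with MK8722 in each genotype, and changed no other count. Libraries of one passage correlated from 0.02 to 0.66 within a genotype and from -0.08 to 0.16 across genotypes. For drug comparisons the passage block was set within each genotype. Between genotypes it took a passage number as the same in both lines, which no label states. That block dropped *Pgm3* between genotypes with torin1 (log2 difference 0.22) and gave -0.0001 for *Uap1* there. In depth, *Gfpt2* could not be tested and *Renbp* responses in DKO cells were poorly determined.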
